A study of Macaca mulatta with 21 samples.

Results

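The replication licensing genes are those that load the MCM helicase onto DNA before S phase and keep that loading to a single round per cycle. The set listed here holds MCM2, MCM3, MCM4, MCM5, MCM6, MCM7, MCM10, CDC6, CDT1 and GMNN, under a rule that names gene symbols and uses no measured value. Of these 10 genes, 8 have a named probe set on the rhesus macaque array. They are read by 13 of its 52865 probe sets and belong to the 14133 genes named there. MCM6 and MCM7 were not analysed here, since the array's annotation pairs no probe set with their symbols. All 8 remaining genes were among the 11143 genes that reached a log2 level of 5 on at least 3 arrays. No sequence of these genes was used here.

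In the G1 phase the origin recognition complex, CDC6 and CDT1 place a ring of MCM2 to MCM7 on each replication origin, and geminin (GMNN) then binds CDT1 to block reloading until the next cycle. Most of these genes are transcribed under E2F control in dividing cells and are low in cells that have left the cycle. Pluripotent stem cells are known for a short G1 phase and rapid division, whereas skin fibroblasts in culture divide more slowly and stop when confluent.

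Messenger RNA was measured in 7 lines with 3 arrays each, labelled A, B and C, for 21 arrays. ORMES23 (male) comprises embryonic stem cells grown out of a blastocyst made by in vitro fertilization. CRES-1, which is male, and CRES-3, which is female, are their counterparts from blastocysts cloned by nuclear transfer. RiPS1, RiPS2 and RiPS3 were induced from skin fibroblasts by retroviruses that carried OCT4, SOX2, KLF4 and cMYC. RiPS1 came from a male fetus, RiPS2 from a female of 10 years and RiPS3 from a female of 8 years. The Fibroblasts are skin cells of an adult female of 8 years. The design text says that cloned and induced lines share monkey skin fibroblasts as their source, without naming which lines share a donor. Feeder layers of mitotically inactivated mouse embryonic fibroblasts supported all 7 lines. Colonies of the pluripotent lines were picked by hand and the Fibroblasts were lifted with trypsin. Every line is a single derivation. Arrays A, B and C are biological replicates per the labels, which do not mention separate cultures, so a p-value measures the spread between these arrays, which may be technical.

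Array medians lay between 4.98 and 5.14 on the log2 scale. Arrays of the Fibroblasts correlated at 0.970 to 0.986 with each other over all probe sets, against a lowest value of 0.983 within any pluripotent line. The pluripotency markers averaged 3.90 to 4.19 on the Fibroblasts arrays, where at most 1 of 8 measured markers reached log2 5. The fibroblast markers averaged 10.49 to 10.84 there. Labels and markers therefore matched for the Fibroblasts on all 3 arrays. In bulk RNA, fewer cells in cycle and less RNA per cell cannot be told apart.

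All 8 licensing genes were lower in the Fibroblasts than in the pluripotent lines, and the 3 Fibroblasts arrays were far apart from each other. For each of the 8 genes array A was the highest and array B the lowest of the 3. That order held for 27.1% of all tested genes. Levels are log2 values, so a step of 1 is a doubling, and levels are compared only within a gene because probes differ in brightness.

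Among the helicase subunits, MCM2 read 9.71, 7.58 and 8.58 on Fibroblasts arrays A, B and C. Its 18 pluripotent arrays ran from 10.79 (CRES-1 C) through a median of 11.20 to 11.47 (RiPS2 B). No pluripotent array came down to the highest Fibroblasts array. MCM3 read 9.56, 7.15 and 8.29 in the Fibroblasts, and 10.97, 11.36 and 11.87 as the lowest, median and highest of the pluripotent arrays. The groups did not overlap for this gene either, and its lowest pluripotent array was RiPS1 A. MCM4 read 10.17, 8.04 and 9.32 in the Fibroblasts, and its pluripotent arrays ran from 10.81 (CRES-3 B) through 11.17 to 11.45 (ORMES23 C). Here Fibroblasts A came within 0.65 of the lowest pluripotent array.

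MCM5, another subunit of the ring, was the helicase gene whose groups met. It read 10.66, 8.19 and 9.49 on the Fibroblasts arrays, while the pluripotent arrays ran from 10.45 (RiPS1 A) through 10.90 to 11.38 (ORMES23 C). RiPS1 A and RiPS1 B (10.65) lay at or below Fibroblasts A, and the other 16 pluripotent arrays lay above it. MCM10, which acts when the loaded helicase is switched on at the start of S phase, had the widest spread of the 8 genes in the Fibroblasts. It read 9.07, 6.52 and 8.41 there, a range of 2.56 or 5.89-fold, against 9.75 (RiPS1 A), 10.40 and 10.70 (RiPS3 A) as the lowest, median and highest pluripotent arrays.

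The loaders and their inhibitor followed the same order. CDC6, an ATPase that joins the origin complex to the helicase, read 7.48, 6.18 and 6.93 in the Fibroblasts, and 8.06 (CRES-1 A), 8.51 and 8.80 (ORMES23 A) as the lowest, median and highest pluripotent arrays. No arrays overlapped. CDT1, which brings the MCM ring to the origin, read 7.80, 6.34 and 6.76 in the Fibroblasts, and its pluripotent arrays ran from 7.48 (RiPS2 A) through 8.10 to 8.40 (RiPS3 B). All 3 CRES-1 arrays (7.58, 7.73 and 7.66), RiPS1 C (7.49) and RiPS2 A lay below Fibroblasts A. CDT1 was thus the gene with the most overlap, at 5 of 18 pluripotent arrays. GMNN, the inhibitor of CDT1, read 7.78, 6.62 and 7.16 in the Fibroblasts, and 9.30 (CRES-1 C), 9.85 and 10.19 (RiPS1 B) in the pluripotent arrays. Its lowest pluripotent array was well clear of Fibroblasts A.

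Counted together, 6 of the 8 genes had all 18 pluripotent arrays above all 3 Fibroblasts arrays, as did 24.5% of all tested genes. MCM5 and CDT1 were the exceptions.

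**Figure D1:**
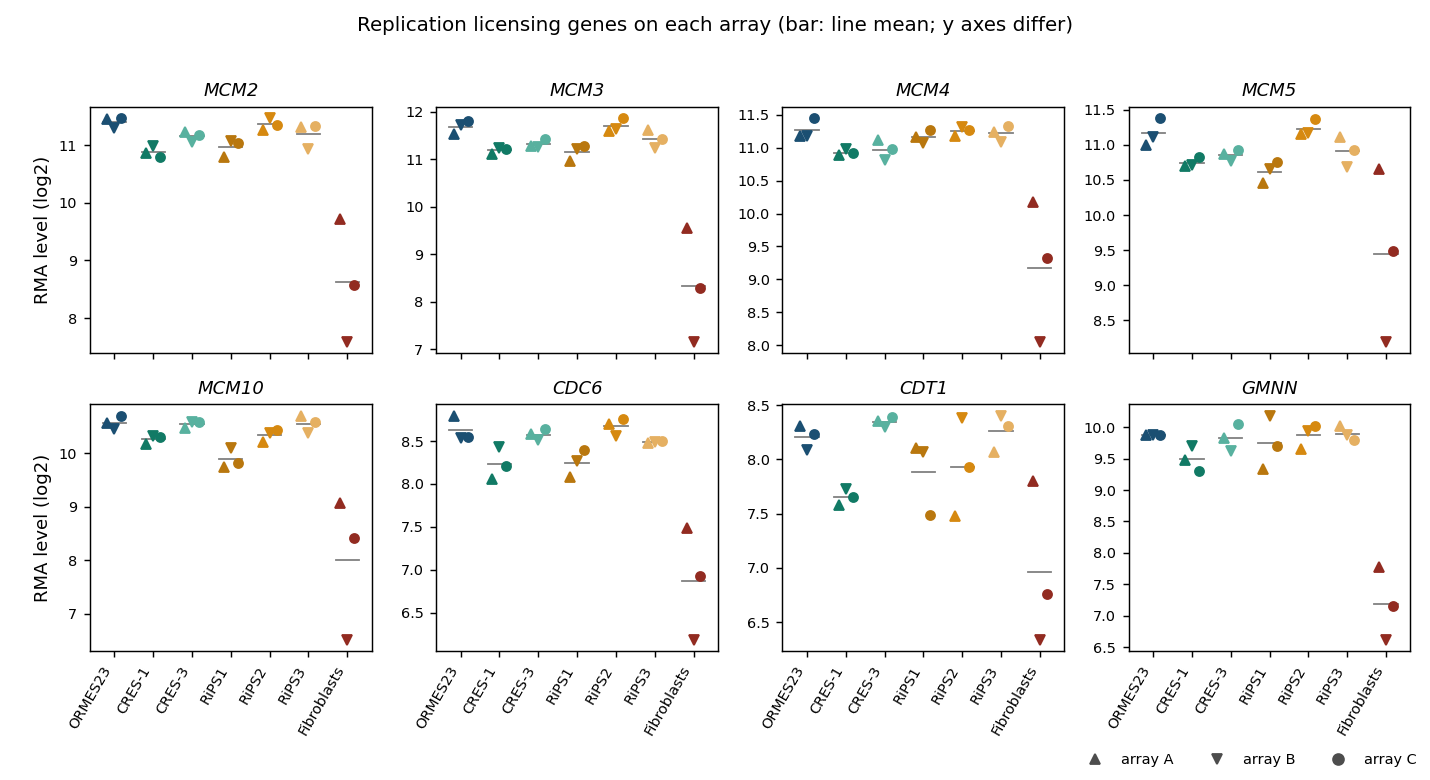
Level of each licensing gene on every array (y axis, RMA log2 level; panels have their own scale), with lines along the x axis, triangles up, triangles down and circles for arrays A, B and C, and a grey bar at the mean of each line. The Fibroblasts mean is the lowest in every panel, with array A the highest and array B the lowest of its 3 arrays, and MCM5 and CDT1 are the panels where Fibroblasts A meets pluripotent arrays.

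The comparison of each pluripotent line with the Fibroblasts asks how licensing genes stand once a pluripotent state has been derived by fertilization, cloning or induction. A gene was called when limma's moderated test gave an adjusted p under 0.05, with Benjamini-Hochberg adjustment over all tested genes, and the fold change was at least 2. By that rule 8 of 8 licensing genes were higher in ORMES23, where 18.5% of all tested genes were called higher. The count was 7 of 8 in CRES-1 (background 16.4%), 8 of 8 in CRES-3 (19.1%), 7 of 8 in RiPS1 (19.3%), 7 of 8 in RiPS2 (17.2%) and 8 of 8 in RiPS3 (18.3%). None was called lower in any of the 6, against 14.1%, 14.2%, 14.2%, 13.5%, 14.6% and 14.2% of all tested genes in that order of lines. The median difference over the 8 genes was 2.33, 2.00, 2.16, 1.94, 2.21 and 2.30 in the same order of lines, while the median over all tested genes was between 0.02 and 0.05. These comparisons share the Fibroblasts arrays and are not independent of each other.

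MCM3 showed the largest difference in every line. It was 3.35 ± 0.35 (SE, n = 3 arrays per line) in ORMES23 or 10.2-fold, with limma's adjusted p of 2.1e-07. It was 2.86 in CRES-1, 2.99 in CRES-3, 2.82 in RiPS1, 3.37 in RiPS2 and 3.10 in RiPS3. GMNN was next in CRES-1, CRES-3, RiPS1 and RiPS3, and had the smallest adjusted p of the 8 genes in each line. Its difference lay between 2.31 ± 0.23 (CRES-1) and 2.71 ± 0.23 (RiPS3). MCM2 differed by 2.26 (CRES-1) to 2.78 (ORMES23), and MCM10 by 1.89 (RiPS1) to 2.57 (ORMES23). MCM4 differed by 1.75 (CRES-1) to 2.09 (ORMES23), and CDC6 by 1.37 (CRES-1) to 1.81 (RiPS2).

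MCM5 and CDT1 had the smallest differences. For MCM5 they were 1.17 ± 0.36 in RiPS1, with limma's adjusted p of 0.0091, 1.30 in CRES-1, 1.41 in CRES-3, 1.46 in RiPS3, 1.72 in ORMES23 and 1.78 in RiPS2. CDT1 was the gene left uncalled in CRES-1 (0.69 ± 0.28), RiPS1 (0.92 ± 0.28) and RiPS2 (0.96 ± 0.28). Its adjusted p in limma was 0.0403, 0.0075 and 0.0057 there, and its differences fell short of the 2-fold limit. In ORMES23, RiPS3 and CRES-3 CDT1 was called at 1.24, 1.30 and 1.38.

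**Figure D2:**
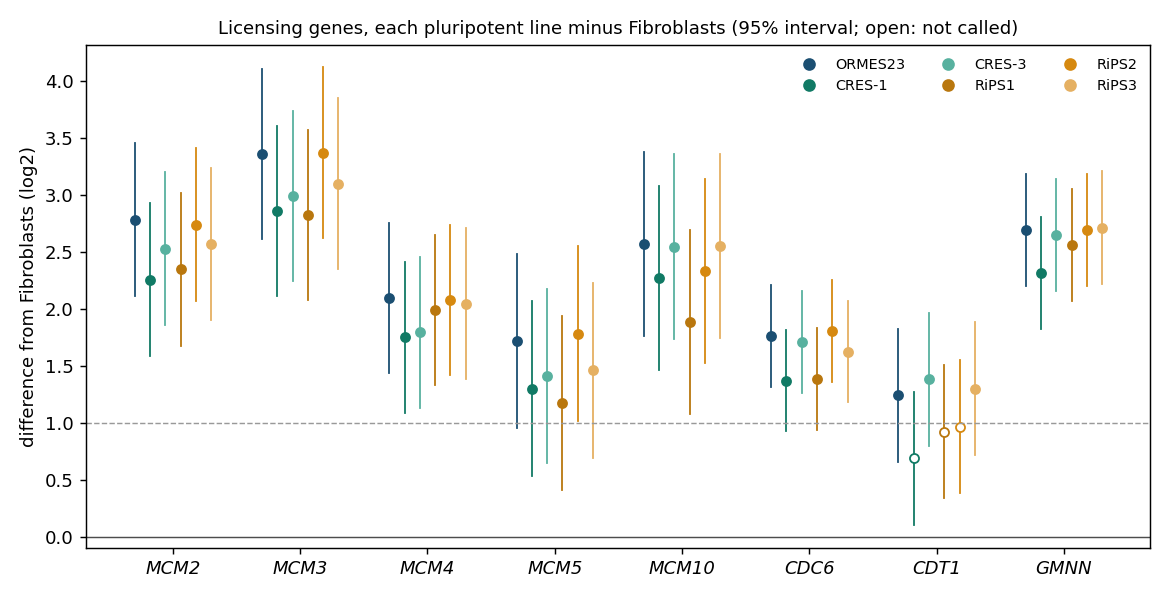
Difference of each pluripotent line from the Fibroblasts (y axis, log2) for the 8 licensing genes (x axis), with 95% intervals from limma over 21 arrays, filled points for called genes, open points for uncalled ones and a dashed line at a 2-fold difference. All points lie above 0, MCM3 is highest at 2.82 to 3.37, and the 3 open points are CDT1 in CRES-1, RiPS1 and RiPS2.

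The Fibroblasts gave more of the spread behind these tests than the 6 pluripotent lines together. They supplied 94.6% of the variance pooled over the 7 lines for MCM10, 90.8% to 93.5% for the other MCM genes, 81.2% for CDC6, 60.6% for CDT1 and 51.7% for GMNN. The standard deviation (SD) over the 3 Fibroblasts arrays was 1.33 for MCM10, 1.24 for MCM5, 1.21 for MCM3, 1.07 for MCM4 and for MCM2, 0.75 for CDT1, 0.65 for CDC6 and 0.58 for GMNN. The median over the 8 genes was 1.07, and that over all tested genes was 0.22. All 8 genes had an SD of at least 0.5, against 12.9% of all tested genes. In the pluripotent lines the median SD of the licensing genes lay between 0.08 (CRES-1) and 0.17 (RiPS3), and the median over all tested genes between 0.12 and 0.18. In each of the 6 pluripotent lines the licensing genes' median SD was below that of all tested genes, and in the Fibroblasts it was above.

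**Figure D3:**
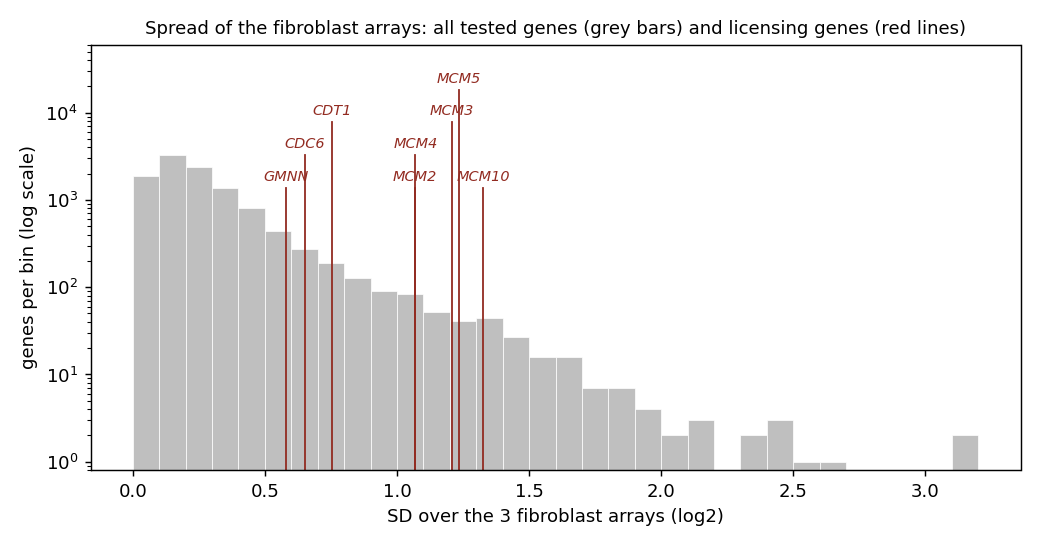
Number of tested genes (y axis, log scale) by SD over the 3 Fibroblasts arrays (x axis, log2, bins of 0.1), with red lines at the licensing genes. The licensing genes stand at SDs between 0.58 (GMNN) and 1.33 (MCM10), while the median over all tested genes is 0.22.

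The size of the gap depended on which Fibroblasts array was taken. Against array A alone, the mean of the 6 pluripotent lines was higher by 2.01 for GMNN, 1.85 for MCM3, 1.45 for MCM2, 1.28 for MCM10, 0.99 for CDC6, 0.97 for MCM4, 0.26 for MCM5 and 0.25 for CDT1. Against array B alone it was higher by 1.71 (CDT1) to 4.27 (MCM3). With array B left out, 7, 6, 7, 6, 7 and 6 of the 8 genes were called higher in ORMES23, CRES-1, CRES-3, RiPS1, RiPS2 and RiPS3, where 17.7%, 15.7%, 18.5%, 18.7%, 16.6% and 17.7% of all tested genes were. MCM5 then differed by 0.55 (adjusted p in limma 0.0527) in RiPS1, 0.67 in CRES-1, 0.78 in CRES-3 and 0.83 in RiPS3, and was not called in those 4 lines. CDT1 was under the fold limit in ORMES23 (0.93) and RiPS3 (0.98). With array A left out, all 8 genes were called higher in all 6 lines, against 17.2% to 20.1% of all tested genes.

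The model pools the spread of all 7 lines, which understates that of the Fibroblasts. Where only the 2 lines of a comparison were fitted, all 8 genes were called in ORMES23, 7 of 8 in CRES-3, RiPS2 and RiPS3, and 6 of 8 in CRES-1 and RiPS1. In those fits 16.1% (CRES-1) to 19% (CRES-3 and RiPS1) of all tested genes were called higher. MCM5 was then uncalled in CRES-1 (adjusted p in limma 0.0901), CRES-3 (0.0594), RiPS1 (0.109) and RiPS3 (0.0569). The other helicase genes, CDC6 and GMNN were called in all 6 lines in that fit too.

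The RNA quality controls of the 3 Fibroblasts arrays moved with their order. On Affymetrix arrays a larger excess of 3′ over 5′ signal in long-lived messages goes with more degraded or less fully copied RNA. For GAPDH this excess was 0.57 on Fibroblasts A, 1.30 on B and 1.02 on C (log2), and 0.47 to 0.93 with a median of 0.69 on the pluripotent arrays. For ACTB it was 0.02, 0.99 and 0.46 on A, B and C, and 0.58 to 2.17 on the pluripotent arrays. Array B, the lowest for every licensing gene, had the largest excess of the 3 and array A the smallest, for both controls. Among the pluripotent arrays CRES-3 A had the smallest excess and CRES-3 C the largest, for both controls. The mean of the licensing genes was 10.22 on CRES-3 A and 10.27 on CRES-3 C. The part of RNA quality in the spread of the licensing genes was not tested. Over all tested genes the median of Fibroblasts array A minus array B was 0.02. The normalization within RMA keeps such a median small, so it says nothing about RNA quality.

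Other genes of the cycle were read in the same arrays to place the licensing genes. Array A minus array B was 2.13 in the median of the 8 licensing genes, and at least 1 for all 8, as for 5.56% of all tested genes. The 11 measured mitosis genes were ordered as the licensing genes in 11 of 11, with a median of 2.61. Among them CENPF, a kinetochore protein, read 9.92, 6.78 and 8.50 on Fibroblasts A, B and C. TOP2A, the topoisomerase of dividing cells, read 10.59, 8.01 and 9.86. The 5 measured subunits of the origin recognition complex differed less, with a median of 0.49 and the order held by 4 of 5. In 9 measured genes of the arrest list the median was 0.18 and the order held by 4. That list also names the cyclins CCND1 and CCND2 and MDM2, which are not inhibitors of the cycle. Its largest member was CDKN2C, at 9.03, 7.24 and 7.84. CDKN1A, the p21 inhibitor that p53 induces, was highest on array B, at 11.43, 12.12 and 11.54.

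**Figure D4:**
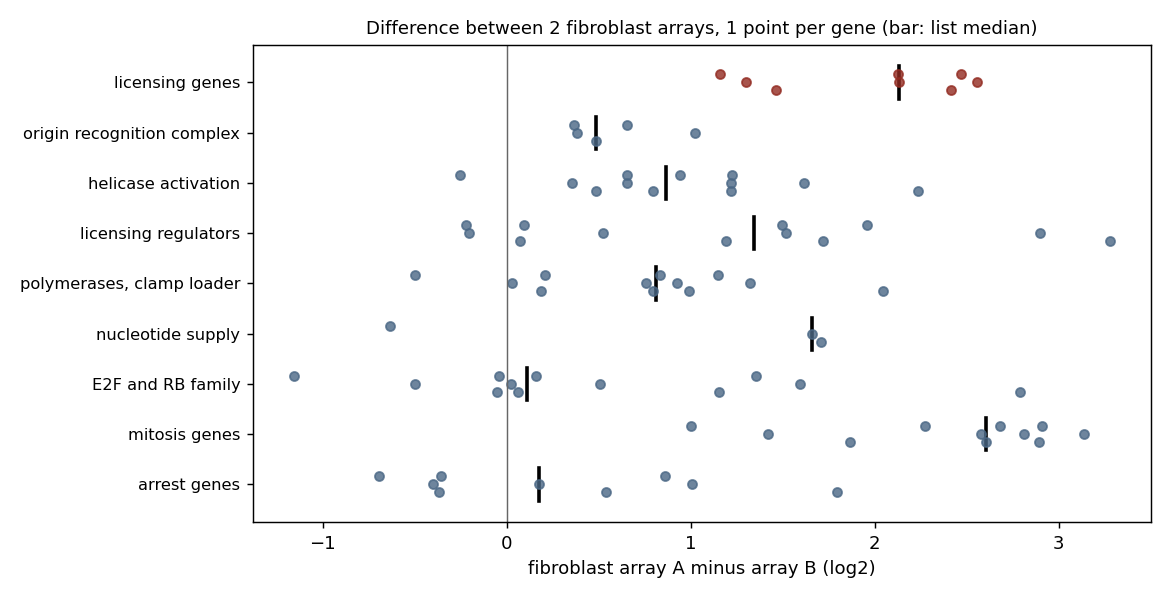
Fibroblasts array A minus array B (x axis, log2) for each gene of the licensing set (red) and of 8 other lists of cell cycle and replication genes (blue), with a black bar at each list's median. Licensing genes (median 2.13) and mitosis genes (median 2.61) lie to the right of 0 throughout. Genes of the arrest list (median 0.18), which also names CCND1, CCND2 and MDM2, lie on both sides.

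Other genes of the pathway were compared with the Fibroblasts in the same way, and each count below stands against the 16.4% to 19.3% of all tested genes called higher in these comparisons. In the origin recognition complex, which marks origins and recruits CDC6, 4 of 5 measured subunits were called higher in each of the 6 comparisons with the Fibroblasts. ORC3 differed by 1.96 ± 0.16, ORC1 by 1.90 ± 0.19, ORC4 by 1.60 ± 0.14 and ORC2 by 1.39 ± 0.17 in ORMES23. ORC5 (0.63) stayed under the fold limit there. Without Fibroblasts B, 4 of 5 were called as well, where 15.7% to 18.7% of all tested genes were. The arrays of ORC4 in the Fibroblasts were close, at 8.03, 7.67 and 8.07, unlike those of the MCM genes.

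Of 12 measured genes that activate the loaded helicase, 7 (CRES-1) to 9 (ORMES23 and RiPS2) were called higher and none lower. Without Fibroblasts B the count fell to between 3 (CRES-1) and 8 (RiPS3). In ORMES23, GINS1 and GINS3, subunits of the complex that joins the MCM ring to CDC45, differed by 1.28 ± 0.15 and 1.74 ± 0.25. WDHD1, which links the helicase to DNA polymerase alpha, differed by 1.68 ± 0.21, and TIPIN, a fork protection factor, by 1.66 ± 0.23. GINS4 (-0.27) did not pass the test.

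Of 12 measured regulators and relatives of the MCM genes, 6 or 7 were called higher in each line. In ORMES23, cyclin E1 (CCNE1) differed by 2.16 ± 0.13 and stood at 7.65, 7.55 and 7.45 on the Fibroblasts arrays, with little of the spread of the licensing genes. DTL, part of the ligase that marks CDT1 for destruction in S phase, differed by 3.03 ± 0.29. SKP2, another ligase subunit that acts on CDT1, differed by 2.40 ± 0.34, and MCM8, a relative of the MCM ring, by 1.93 ± 0.22. The Fibroblasts means of SKP2 (5.26) and MCM8 (4.87) are near background, so both differences are bounded by the floor of the array. CCNE2, the sister of CCNE1, was called lower in 5 of the 6 lines, with differences of -1.23 (RiPS1) to -1.54 (CRES-3), and read 7.19, 4.29 and 5.99 in the Fibroblasts. In ORMES23 its difference of -0.90 did not pass the test. Its mean in each pluripotent line lay between 4.29 and 4.93, near background, as did Fibroblasts B, so these differences are bounded by the floor too.

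Of 12 measured genes of the replicative polymerases and clamp loader, 4 (CRES-1) to 6 were called higher, among them POLD3 (2.17 in ORMES23), POLE2 (1.39), POLA1 (1.50) and RPA3 (1.19). Of 3 measured genes of nucleotide supply, RRM1 (0.72) and TYMS (0.70) were not called in ORMES23, and DUT was called at 1.48 from a Fibroblasts mean of 4.85, near background. Of 12 measured E2F and RB family genes, 3 to 5 were called higher, and 3 of 12 is not far above the share over all tested genes. They included TFDP2 (2.43), E2F5 (2.53), E2F3 (1.35) and E2F7 (1.25) in ORMES23. E2F1 (0.13) did not pass the test there.

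All 11 measured mitosis genes were called higher in ORMES23, CRES-3 and RiPS1 and 10 in the other 3 lines. Without Fibroblasts B these counts fell to between 6 and 9. In ORMES23, CENPF differed by 3.49, TOP2A by 2.79, the kinase AURKB by 1.74 and the kinesin CENPE by 1.57. Of 9 measured genes of the arrest list none was called higher and 3 or 4 were called lower. Over all tested genes 13.5% to 14.6% were called lower. CCND1, CCND2 and MDM2 are on that list too, so these may not be counts of arrest genes alone. In ORMES23, CDKN1A differed by -4.78 and CDKN2C, an inhibitor of the cyclin D kinases, by -3.27. The ORMES23 mean of CDKN2C (4.76) is near background, so its difference is bounded by the floor. CDKN2D (-0.69) and GADD45A (-0.49) were under the fold limit.

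Among the 6 pluripotent lines no licensing gene was called in any of 15 pairs. Per pair, 881 (CRES-3 against RiPS3) to 3020 (RiPS1 against RiPS2) of the 11143 tested genes had an unadjusted p under 0.05 in limma. Over the 120 member tests of these pairs, 0 had an adjusted p under 0.05 and 2 had an unadjusted p under 0.05. Both concerned CDT1, which was lower in CRES-1 than in CRES-3 by -0.69 (95% interval -1.28 to -0.11, adjusted p 0.125) and lower in CRES-1 than in RiPS3 by -0.61 (adjusted p 0.234). The share of all tested genes called in either direction was 0% for CRES-1, 0.996% for CRES-3, 2.4% for RiPS1, 0.458% for RiPS2 and 0.763% for RiPS3 against ORMES23. It was 2.61% for CRES-3 against CRES-1, 0.0359% for CRES-3 against RiPS3, 2.14% for CRES-1 against RiPS1 and 1.18% for RiPS2 against RiPS3. For RiPS1 it was 2.51% against the mean of RiPS2 and RiPS3, 3.61% against RiPS2 and 2.44% against RiPS3. It was 0.709% for CRES-1 against RiPS2, 1.53% for CRES-1 against RiPS3, 2.03% for CRES-3 against RiPS1 and 1.48% for CRES-3 against RiPS2. An interaction test asked whether the cloned minus induced difference was unlike in the female pair (CRES-3 and RiPS3) and the male pair (CRES-1 and RiPS1). No licensing gene passed it, and the smallest adjusted p in limma was 0.692 for CDT1. The SEs of this test ran from 0.30 (CDC6) to 0.54 (MCM10), from a pooled spread that includes the Fibroblasts arrays. The share of all tested genes that passed it is not given here, nor is a fit of it without the Fibroblasts. The test therefore cannot show that the female and male pairs were alike.

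By the mean of the 8 genes the lines ranked ORMES23 (10.35 ± 0.08, SD, n = 3), RiPS2 (10.30 ± 0.12), RiPS3 (10.24 ± 0.10), CRES-3 (10.20 ± 0.08), RiPS1 (9.96 ± 0.12), CRES-1 (9.93 ± 0.08) and Fibroblasts (8.07 ± 0.98). In the fit on 21 arrays, pluripotent lines that were neighbours in the order of a single gene did not pass the threshold for any of the 8 genes. The lowest pluripotent line was called against the Fibroblasts for 7 of them, CDT1 being the exception. In single lines 16.4% (CRES-1) to 19.3% (RiPS1) of all tested genes were called higher. The share for the lowest line of each gene was not computed.

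Since the pooled spread holds the scattered Fibroblasts arrays, it is wide for a comparison of pluripotent lines. For MCM10, the SD pooled over lines was 0.52 with the Fibroblasts and 0.13 without them, and for MCM3 it was 0.47 and 0.14. The 15 pairs were therefore fitted again on the 18 pluripotent arrays, a fit chosen after the data were seen. Still no licensing gene reached a 2-fold difference, but 16 of the 120 member tests then had an adjusted p under 0.05 in limma, and 54 had an unadjusted p under 0.05. Per pair, 1053 (CRES-3 against RiPS3) to 3367 (RiPS1 against RiPS2) of the 11143 tested genes had an unadjusted p under 0.05 in that fit.

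Most of the 16 concerned RiPS1. In that fit 5 of 8 licensing genes were lower in RiPS1 than in ORMES23 at an adjusted p under 0.05, as 10.3% of all tested genes differed in either direction. MCM10 differed by -0.68 ± 0.11 (SE, adjusted p 0.0014), MCM5 by -0.54 ± 0.13 (0.0122), MCM3 by -0.53 ± 0.12 (0.0104), MCM2 by -0.43 ± 0.12 (0.0314) and CDC6 by -0.38 ± 0.11 (0.0453). With each RiPS1 or ORMES23 array left out in turn, MCM10 passed every time (-0.61 to -0.79), while the count of passing genes ran from 1 to 5. It was 1 of 8 without ORMES23 C and 1 of 8 without RiPS1 A, where 6.17% and 5.7% of all tested genes passed, and 3 of 8 without ORMES23 A (12.1%). It was 4 of 8 without ORMES23 B (5.91%) and without RiPS1 B (6.49%), and 5 of 8 without RiPS1 C (10.5%). On all 18 arrays, MCM10, MCM5, MCM3, MCM2 and CDC6 were also lower in RiPS1 than in RiPS2, with differences of -0.39 (MCM2) to -0.61 (MCM5), where 15% of all tested genes differed. Against RiPS3 the difference passed for MCM10 alone, at -0.67 (background 10.8%). Against the mean of RiPS2 and RiPS3 it passed for MCM10 (-0.56), MCM5 (-0.45), MCM3 (-0.41) and CDC6 (-0.33), with a background of 14.4%. These comparisons share the RiPS1 arrays. MCM10 was also higher in CRES-3 than in RiPS1 by 0.66 (background 8.52%). It was higher in CRES-1 than in RiPS1, its neighbour in the order for this gene, by 0.38 ± 0.11 (SE, adjusted p in limma 0.0486, background 8.97%). Arrays of the same letter deviated together in these 2 lines, a pairing chosen from these same data. With the letter as a replicate block over all 18 arrays, the adjusted p in limma was 0.0624, so that difference no longer passed. That block covers all 6 pluripotent lines. In a limma fit of the 6 arrays of these 2 lines alone, the adjusted p was 0.144 (SE 0.131) without the block. With the block it was 0.0931 (SE 0.112).

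MCM4, CDT1 and GMNN did not pass in any of these RiPS1 comparisons. Against ORMES23, MCM4 differed by -0.10 (95% interval -0.33 to 0.12), CDT1 by -0.32 (-0.73 to 0.08) and GMNN by -0.13 (-0.51 to 0.24). The RiPS1 arrays for MCM10 were 9.75, 10.10 and 9.81 against 10.55, 10.46 and 10.69 in ORMES23, and did not overlap with any other pluripotent line. Against ORMES23 alone, every RiPS1 array was lower for 10.4% of all tested genes. The share set apart from all other pluripotent lines was not computed. RiPS1 is male and of fetal origin while RiPS2 and RiPS3 are female and adult, and each is a single derivation, so sex, donor age and derivation cannot be told apart.

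CRES-1 was lower than ORMES23 in every array for all 8 licensing genes, as for 11.4% of all tested genes. Differences ran from -0.30 (MCM10) to -0.56 (CDT1). None passed in either fit. Over all tested genes limma called 0 between CRES-1 and ORMES23, with 1270 at an unadjusted p under 0.05. In the fit on 18 arrays each of the 8 genes had a 95% interval below 0, such as -0.78 to -0.27 for MCM2. In that fit 1594 of the 11143 tested genes had an unadjusted p under 0.05 in either direction in limma. Adjusted p-values of the 8 genes were 0.111 or more, and 0.0359% of all tested genes passed. MCM2 (-0.48) and MCM3 (-0.51) were lower in CRES-1 than in RiPS2 in that fit, with adjusted p of 0.0439 and 0.033 and a background of 2.75%. CDT1 was lower in CRES-1 than in CRES-3 there too (adjusted p 0.0314, background 10.7%). The 3 CRES-1 arrays of CDT1 were 7.58, 7.73 and 7.66 and the 3 CRES-3 arrays 8.36, 8.30 and 8.39. CRES-1 and CRES-3 differ in sex as well as in derivation, and these cannot be told apart.

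CRES-3, RiPS2 and RiPS3 stayed closest to ORMES23. In CRES-3 every array was lower than every ORMES23 array for 4 of 8 genes (background 12.3%), in RiPS2 for 1 (8.38%) and in RiPS3 for 1 (8.82%), against 5 in RiPS1 (10.4%). None of the differences of CRES-3, RiPS2 and RiPS3 from ORMES23 passed in the fit on 18 arrays, where 3.24%, 1.38% and 2.6% of all tested genes did. The largest was -0.36 for MCM3 in CRES-3, with a 95% interval of -0.62 to -0.11 and an adjusted p of 0.111. CRES-3 and RiPS3, the cloned and the induced female line, had no passing licensing gene in either fit, and 0.126% of all tested genes passed in the fit on 18 arrays. No licensing gene passed there either for CRES-1 against RiPS3 (background 5.24%), CRES-3 against RiPS2 (6.11%) or RiPS2 against RiPS3 (4.59%).

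**Figure D5:**
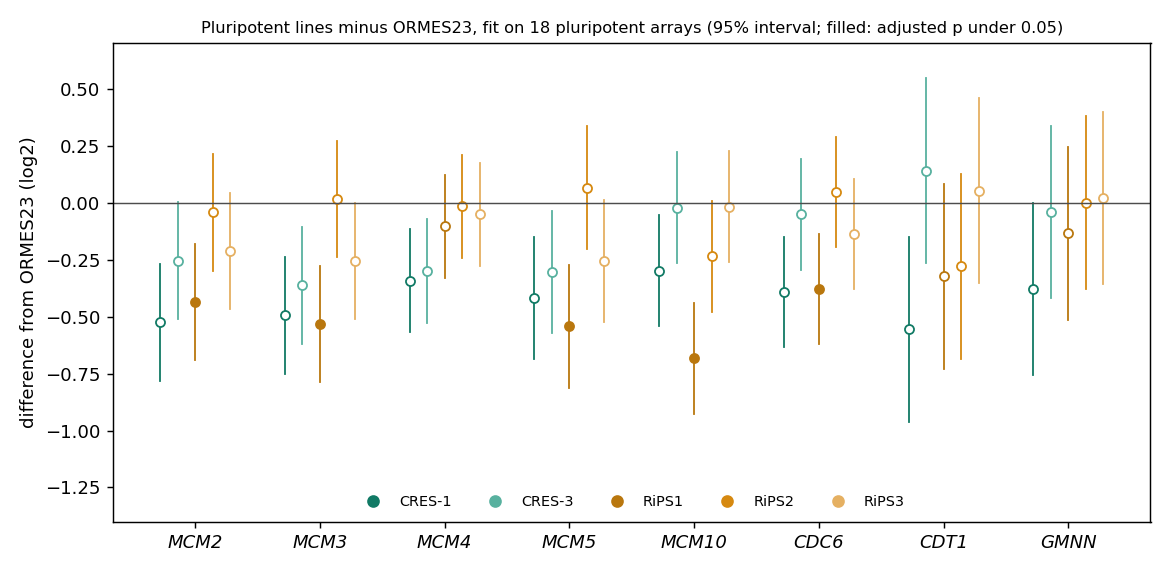
Difference of 5 pluripotent lines from ORMES23 (y axis, log2) for the 8 licensing genes (x axis), with 95% intervals from limma over the 18 pluripotent arrays and filled points at an adjusted p under 0.05. The 5 filled points are RiPS1 at MCM2, MCM3, MCM5, MCM10 and CDC6, and all CRES-1 points are open and below 0.

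CDC6, MCM5 and MCM4 have more than 1 probe set, and all of these that passed the filter on low values were higher in each pluripotent line than in the Fibroblasts. The second probe set of CDC6 differed by 1.62 (CRES-1) to 2.00 (RiPS2) from the Fibroblasts and was called in all 6 lines. A second probe set of MCM5 showed smaller differences, from 0.64 (CRES-3) to 1.05 (RiPS2), and was called in RiPS2 alone. MCM4 has 3 further probe sets, of which 2 were called in all 6 lines at 1.04 to 2.14. The last one read 3.12 to 3.81 on all 21 arrays, near background, and failed the filter on low values. In a fit of every probe set, 10 or 11 of the 12 remaining licensing probe sets were called higher in each line, where 15.2% to 18.9% of all probe sets were. None was called in the 9 pairs of pluripotent lines fitted at that level. Of the 30723 probe sets tested there, 7 (CRES-1 minus ORMES23) to 573 (CRES-3 minus CRES-1) were called higher. Between 15 (CRES-1 minus ORMES23) and 482 (CRES-1 minus RiPS1) were called lower. A count of 0 of 12 is thus close to the share over all probe sets. Directions could differ between probe sets of a gene in these pairs. For RiPS1 minus ORMES23, the 3 MCM4 probe sets that passed the filter read -0.10, 0.17 and -0.43.

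The licensing genes moved together across arrays. Each gene was set against the mean of the other 7 over the 21 arrays, which share the gap between Fibroblasts and pluripotent lines. Pearson's r ran from 0.84 (CDT1) to 0.99 (MCM2). After line means were removed it ran from 0.71 (CDT1) to 0.98 (MCM2), with the Fibroblasts arrays giving most of the spread. Over the 18 pluripotent arrays it was 0.91 for MCM2, 0.82 for MCM3, 0.77 for CDC6 and for MCM5, 0.67 for MCM10, 0.66 for GMNN, 0.52 for MCM4 and 0.39 for CDT1. CDT1 was thus the member least like the others in all of these measures.

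Outside the set, the genes whose profile over the 21 arrays was most like the mean of the licensing genes were CAPZA2 (r = 0.992), GINS2 (0.990), CHAF1A (0.990), HSF4 (0.988) and TMSB15A (0.986). GINS2 is a partner of the MCM ring in the active helicase, and CHAF1A is a subunit of a chaperone that deposits histones behind the fork. By deviations from line means the most alike were CDCA3 (0.987), CCNB1 (0.986), ZWINT (0.985), CENPF (0.983) and DTL (0.982). Cyclin B1 (CCNB1) drives entry into mitosis and ZWINT is a kinetochore protein. GINS2 read 9.30, 7.07 and 8.31 on Fibroblasts A, B and C, and CCNB1 read 11.65, 8.75 and 10.24, the order of the licensing genes.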

How the data were processed

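The authors' deposited table holds a log2 intensity for each probe set of Affymetrix rhesus arrays, computed with RMA, a method that corrects, normalizes and sums the probes of a set, per the submitters' processing notes. The RMA version is not given in the sources used here. Probe sets were named through the array's annotation: 24969 carried 1 gene symbol, 361 several and 27535 none. Each gene was read from its brightest probe set, and the test covered 11143 genes that reached log2 5 on 3 or more arrays. Values below log2 5 lie near background. Line means were fitted in a single linear model with limma 3.58.1 in R 4.3.3 (14 residual degrees of freedom, empirical Bayes). P-values are two-sided, with Benjamini-Hochberg adjustment over all tested genes. SEs and 95% intervals come from that model. The rule for the licensing genes names symbols alone, but it and the other lists were drawn up with earlier results of these data known. From each list, the genes named are the 4 with the smallest p in ORMES23 minus Fibroblasts, and others given beside them were chosen after their values were seen. Array letters were taken to pair CRES-1 with RiPS1 only, where same-letter deviations correlated at 0.32, 0.33 and 0.35. That pairing was chosen from these same values and is not given by the labels. Single values as high occurred elsewhere, such as 0.44 for array C of ORMES23 and RiPS1. The fit was tested on simulated data. The number of arrays limits precision. Alternatives were other probe set and filter rules, quantile normalization, array weights, the lines compared alone, a block on the array letter, and leaving out each array. A search of promoters for motifs was not run.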

Additional observations from a re-analysis of the deposited data

How the results depend on the processing

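No licensing gene changed direction against the Fibroblasts under any alternative run. Of 624 member values recomputed, 605 stayed on the same side of the call, 12 fell below it and 7 rose above it, and those concerned MCM4, MCM5 and CDT1. With the mean of a gene's probe sets, MCM5 in RiPS1 (0.92) and MCM4 in CRES-1 (0.93) fell under the fold limit. That mean for MCM4 takes in its probe set near background, at 3.49 in CRES-1 and 3.66 in the Fibroblasts. With array weights, whose estimate stopped before it converged, CDT1 passed in RiPS1 (1.19) and RiPS2 (1.16). CDT1 also passed without RiPS1 C (1.12), without RiPS2 A (1.19), and without Fibroblasts A in CRES-1 (1.11), RiPS1 (1.34) and RiPS2 (1.38). The cause of these changes was not tested. With arrays left out in turn, the counts of licensing genes called higher than in the Fibroblasts ran from 6 to 8 of 8. Where a Fibroblasts array was left out, 15.7% to 20.1% of all tested genes were called higher. Between pluripotent lines, the fit on 18 arrays with no limit on the fold gave the following counts in place of 0. It gave 5 for RiPS1 minus ORMES23 (10.3% of all tested genes), 1 for CRES-1 minus RiPS1 (8.97%) and 1 for CRES-3 minus CRES-1 (10.7%). RiPS1 minus the mean of RiPS2 and RiPS3 gave 4 (14.4%), and RiPS1 minus RiPS2 gave 5 (15%). CRES-1 minus RiPS2 gave 2 (2.75%), CRES-3 minus RiPS1 gave 1 (8.52%) and RiPS1 minus RiPS3 gave 1 (10.8%). That fit was chosen after the data were seen, as was dropping the fold limit. A replicate block on the array letter gave 8, 7, 8, 7, 7 and 8 called genes against the Fibroblasts and 0 between pluripotent lines, as without it. The share of all tested genes called with that block is not given here. Same-letter arrays of different lines correlated at -0.41 to 0.44 in their deviations (63 pairs, 20 over 0.1, median 0.01). For CRES-1 and RiPS1 all 3 were over 0.1, and for the other pairs of lines at least 1 was not. A block added later to the 18-array fit took CRES-1 minus RiPS1 from 1 to 0 passing genes; with the 6 arrays of both lines alone it was 0 with and without the block.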
